A study of Saccharomyces cerevisiae with 8 samples.

Results

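The genes described here encode the proteasome of budding yeast (Saccharomyces cerevisiae) and the proteins that work beside it. They are 38 of the 6692 gene identifiers in the count table, taken by identifier: 14 subunits of the 20S core, 19 subunits of the 19S regulatory particle (10 of its base and 9 of its lid) and 5 associated proteins. All 38 passed the low-count filter. Yeast in YEPD (rich medium) at 30 °C was collected at an OD600 of 0.6, after 2 min with 100 ug/ml cycloheximide, a drug that arrests ribosomes during elongation. Ribosome-protected fragments of mRNA (footprints), left after digestion with RNase I, were sequenced from monosomes (ribosomes alone on an mRNA), from polysomes (mRNAs with several ribosomes) and from all ribosomes of the undivided lysate (global footprints), and mRNA fragments were sequenced beside them. Each of these 4 groups had 2 libraries. Growth and drug were the same in all 8, and the labels used here name no strain and do not say whether replicates were grown separately. The p-values therefore reflect how far these libraries scatter, and that scatter may be technical.

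The proteasome degrades proteins that carry ubiquitin chains. The 20S core is a barrel of rings, with alpha subunits forming the outer gates and beta subunits the inner rings where peptide bonds are cut. The 19S particle caps the barrel: ATPases of its base unfold the substrate, scaffold and receptor subunits of the base hold ubiquitin and shuttles, and the lid carries the enzyme that removes ubiquitin. Rpn4, a short-lived activator that the proteasome itself destroys, drives transcription of the subunit genes in yeast.

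Library totals ran from 4723489 to 8686385 counts in monosome and polysome libraries and from 552992 to 933252 in global and mRNA libraries. A member had at least 308 counts in each monosome or polysome library and at least 47 in each global library, but as few as 3 in an mRNA library, so comparisons with mRNA carry the largest error. Levels are CPM, counts scaled for library size with TMM factors, and levels are compared between genes only as CPM per kb of gene length. Differences are log2 fold changes from edgeR's quasi-likelihood test, adjusted over 5336 genes, with calls at an adjusted p under 0.05. The SE given with a fold change is derived from the test statistic and adds no separate evidence.

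Levels of the core subunits lay closer together in global footprints than in mRNA. Across the 14 core genes the mean level per kb in global footprints ran from 188 CPM per kb for PRE3, which encodes the caspase-like active site of the beta ring, to 315 CPM per kb for SCL1, an alpha subunit. The highest was 1.67 times the lowest. In mRNA the same genes ran from 61.0 CPM per kb for PRE1, a beta subunit, to 275 CPM per kb for PRE4, another beta subunit, and the highest was 4.51 times the lowest. As a standard deviation of log2 levels across the 14 genes, the spread was 0.20 in global footprints and 0.65 in mRNA, where Poisson counting of these reads would give 0.08 and 0.14. The order held in each library: the standard deviations were 0.20 and 0.24 in the global libraries, against 0.82 and 0.55 in the mRNA libraries. The Poisson values cover counting error only. Replicates varied beyond it, more so in mRNA (chi-square divided by degrees of freedom 4.64) than in global footprints (1.49). PRE3 contains an intron that its gene length of 764 nt includes, so its level per kb is understated. Its place as the lowest in global footprints, and the ratio of 1.67, rest on that length. The next lowest was PUP2, an alpha subunit, at 214 CPM per kb.

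The regulatory particle showed the same order with a wider spread. Its 19 genes ran from 102 CPM per kb for RPT3, an ATPase, to 528 CPM per kb for SEM1, a small acidic lid subunit, in global footprints, and from 29.1 CPM per kb for RPN5, a lid subunit, to 268 CPM per kb for RPN10, a ubiquitin receptor, in mRNA. The standard deviations of log2 levels were 0.54 in global footprints and 0.95 in mRNA. Across all 5264 tested genes with a length, those above 0 had standard deviations of 2.40 and 2.36, so footprints were not narrower than mRNA over the table as a whole. No test was made of these spreads. Within the core, the level per kb in mRNA and that in global footprints had a Spearman rho of -0.191 over 14 genes, and within the regulatory particle one of -0.142 over 19 genes. In the core Pearson's r was 0.0665, of the other sign, and in the regulatory particle it was -0.186, so neither measure shows a clear relation. Both measures of a gene share its length as a divisor. Between the 2 replicate libraries, core genes had a rho of 0.631 in global footprints and 0.916 in mRNA, and regulatory particle genes one of 0.916 and 0.935.

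**Figure D1:**
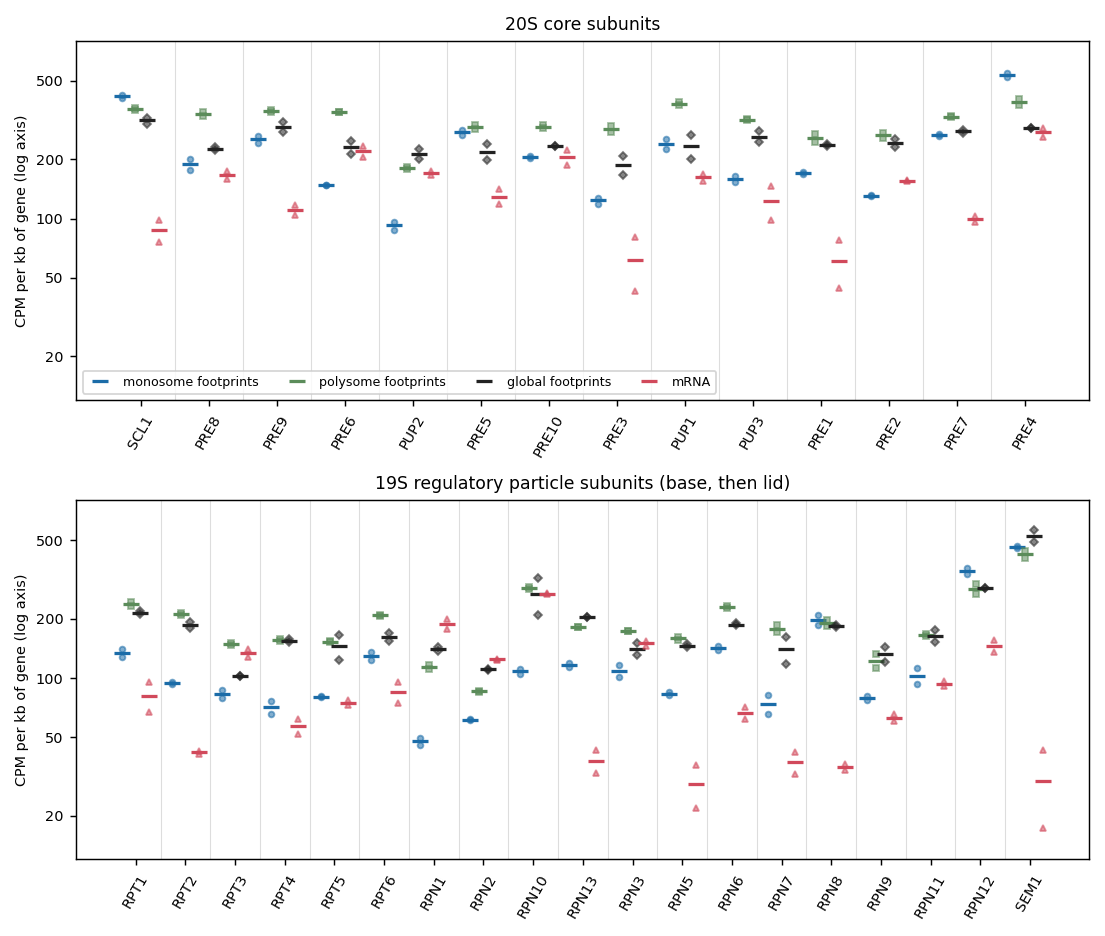
Level per kb of gene, in CPM per kb on a log axis, of each 20S core subunit (top) and each 19S subunit (bottom) in monosome, polysome and global footprints and in mRNA; small symbols are the 2 libraries of a group and bars their mean. Black global bars of the core lie between 188 and 315 CPM per kb, while the red mRNA bars lie between 61.0 and 275 CPM per kb.

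Among associated proteins the levels per kb in global footprints differed more. The ubiquitin shuttle gene DSK2 stood at 298 CPM per kb and the other shuttle gene, RAD23, at 140 CPM per kb. UBP6, a ubiquitin-removing enzyme that docks on the base, had 91.1 CPM per kb, RPN4 had 40.2 CPM per kb and ECM29, which tethers core and regulatory particle, had 21.7 CPM per kb. In mRNA the order differed, with DSK2 at 581, RAD23 at 128, ECM29 at 61.2, UBP6 at 27.8 and RPN4 at 14 CPM per kb.

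The first comparison asked how footprints of these genes divide between monosomes and polysomes, relative to other genes. Most were lower in monosomes: 31 of 38 fell (81.6%, against 33.5% of all genes tested) and 2 rose (5.26%, against 36.6%), with a median log2 fold change of -0.69 beside 0.05 over all genes. Fold changes here depend on how libraries are scaled, because with library totals alone the median of all genes moves to 0.50. The members then fell in 23 and rose in 7, against 16.2% and 56.8% of all genes, and the gap between the members' median and that of all genes stayed at -0.74. When genes averaging under 100 counts were dropped, that gap was -0.47, with 30 members lower and 5 higher, against 36.2% and 38.6% of genes. With TMM factors 34 of the 38 lay below the median of all genes. In bulk polysome footprints, more mRNAs in the fraction and more ribosomes on each cannot be told apart.

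Core and regulatory particle differed little here. Of the 14 core genes 11 fell, 1 rose and 2 did not pass (median -0.63), and of the 19 regulatory particle genes 16 fell, 1 rose and 2 did not pass (median -0.70). The difference of medians, core minus regulatory particle, was 0.07, and it ran from 0.03 to 0.21 over the 4 pairings of a monosome with a polysome library. It was 0.16 without monosome replicate 1 or polysome replicate 2, and 0.00 without polysome replicate 1. By subcomplex, all 10 base genes fell (median -0.88), as did 6 of 9 lid genes (median -0.67), 6 of 7 beta genes (median -0.68) and 5 of 7 alpha genes (median -0.51).

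In the core, the lowest ratio belonged to PRE6 (YOL038W), an alpha subunit gene (chromosome XV, 255337 to 256101, R64 assembly). It had 113 and 113 CPM in monosome libraries, against 265 and 266 CPM in polysome libraries (log2 fold change -1.23 with SE 0.10, edgeR adjusted p = 8.91e-21). The highest belonged to PRE4 (YFR050C, chromosome VI, 249066 to 249866), with 439 and 419 CPM in monosomes, against 301 and 326 CPM in polysome libraries (0.45, SE 0.10, edgeR adjusted p = 4.34e-05). Neither gene's groups overlapped, and PRE4 was the sole core gene to pass on the higher side. Of the 3 genes with active sites, PRE3 fell by 1.20, PRE2, the chymotrypsin-like site, by 1.01 and PUP1, the trypsin-like site, by 0.68 on the log2 scale. SCL1 had 311 and 321 CPM in monosomes, against 278 and 270 CPM in polysomes. It sat just outside the threshold (0.21, SE 0.10, edgeR adjusted p = 0.0507) and passed under 7 of 11 alternatives.

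**Figure D2:**
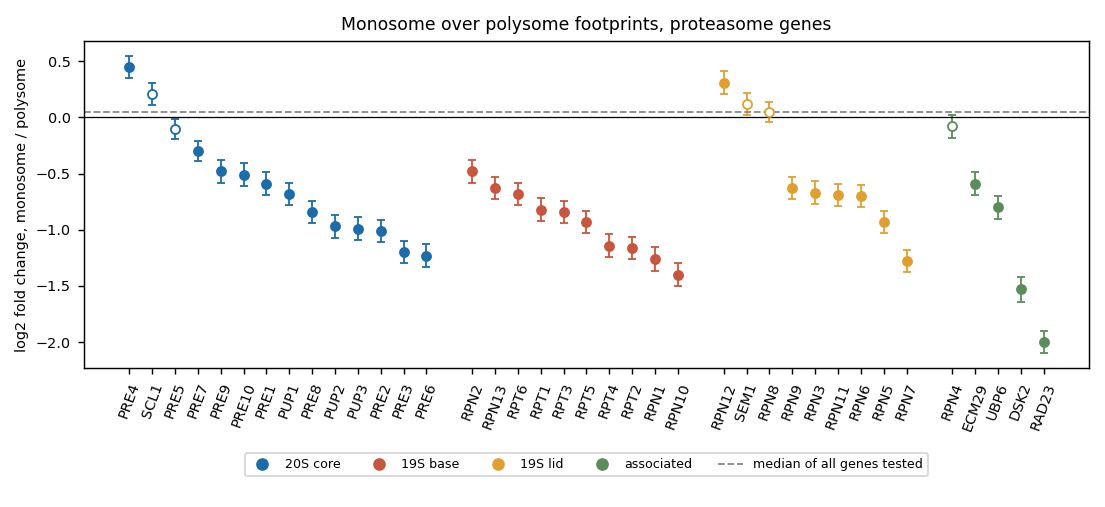
Log2 fold change of monosome over polysome footprints for each gene, with bars of 1 SE, sorted within 20S core, 19S base, 19S lid and associated proteins; filled points passed the edgeR threshold, open points did not, and the dashed line is the median of all genes tested, 0.05. All 10 base genes lie below 0, while PRE4 (0.45) and RPN12 (0.31) are the filled points above it.

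In the base, RPN10 (YHR200W) had the lowest ratio (chromosome VIII, 499079 to 499885). It had 84.7 and 89.6 CPM in monosomes, against 234 and 228 CPM in polysome libraries (-1.40, SE 0.10, edgeR adjusted p = 1.51e-22). The other intrinsic receptor, RPN13 (-0.63), and the scaffold RPN2 (-0.48) fell less, and the partner scaffold RPN1 fell by 1.26 on the log2 scale. RPN2 had the highest ratio of the base, at 173 and 176 CPM in monosomes, against 242 and 245 CPM in polysomes. With library totals RPN13 (-0.18) and RPN2 (-0.03) did not pass. The 6 ATPases ran from -1.16 for RPT2 to -0.68 for RPT6.

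Lid genes differed more among themselves. RPN7 (YPR108W), a lid subunit, had 105 and 84.5 CPM in monosomes, against 238 and 220 CPM in polysome libraries (-1.28, SE 0.10, edgeR adjusted p = 1.22e-20). RPN12, the subunit that completes lid assembly (YFR052W, chromosome VI, 252505 to 253329), had 278 and 298 CPM in monosomes, against 246 and 220 CPM in polysome libraries (0.31, SE 0.10, edgeR adjusted p = 0.00378). Its call was lost without polysome replicate 2 (0.23, edgeR adjusted p = 0.129), and it passed under the other 10 alternatives, with fold changes of 0.27 to 0.76. SEM1 (YDR363W-A) had 126 and 123 CPM in monosomes, against 110 and 120 CPM in polysomes (0.12, SE 0.10), and RPN8, which pairs with the deubiquitinase subunit Rpn11, had 212 and 190 CPM in monosomes, against 200 and 187 CPM in polysomes (0.05, SE 0.09). Neither passed, and the groups of RPN8 overlapped. RPN11 itself fell by 0.69 on the log2 scale.

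The shuttles had the lowest ratios of all members. RAD23 (YEL037C, chromosome V, 81407 to 82603) had 84.2 and 71.2 CPM in monosomes, against 311 and 307 CPM in polysomes. That was 3.99-fold lower (-2.0, SE 0.10, edgeR adjusted p = 5.35e-33), the 7th lowest fold change of 5336. DSK2 (YMR276W, chromosome XIII, 818827 to 819948) had 215 and 217 CPM in monosomes, against 626 and 618 CPM in polysomes, and was 2.88-fold lower (-1.53, SE 0.11, edgeR adjusted p = 8.63e-24). UBP6 (YFR010W) had 97.6 and 92.7 CPM in monosomes, against 166 and 165 CPM in polysomes (-0.80, SE 0.10), and ECM29 (YHL030W) had 61.0 and 62.9 CPM in monosomes, against 97.6 and 88.9 CPM in polysomes (-0.59, SE 0.10). Both passed, although ECM29 did not with library totals (-0.13). RPN4 (YDL020C) did not: its 61.4 and 64.5 CPM in monosomes, against 64.6 and 68.4 CPM in polysomes, gave -0.08 (SE 0.10, edgeR adjusted p = 0.527), so the activator gene's ratio lay above those of the 31 members that fell.

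The core genes are alike in length, at 597 to 867 nt. Their log2 length and fold change had a Spearman rho of -0.0505 over 14 genes, and in the regulatory particle, with genes of 270 to 2982 nt, it was -0.374 over 19 genes. All 762 tested genes in the core's length range had a median of 0.02, beside the core's -0.63. The shortest member, SEM1 at 270 nt, had a fold change near 0 and the longest, ECM29 at 5607 nt, one of -0.59, while RPN10 and RPN12, of 807 and 825 nt, lay at -1.40 and 0.31.

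**Figure D3:**
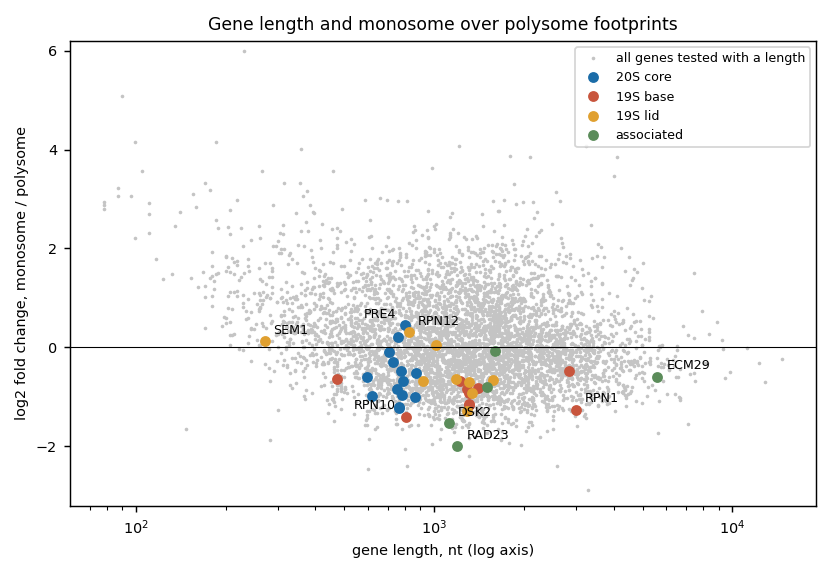
Log2 fold change of monosome over polysome footprints against gene length in nt (log axis) for all tested genes with a length (grey) and the proteasome genes (coloured by subcomplex). The 14 core genes stack within 597 to 867 nt yet span -1.23 to 0.45, and RAD23 lies near the lower edge of the cloud at -2.0.

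Core levels were also less even in monosomes than in polysomes. The level per kb ran from 92.3 CPM per kb for PUP2, an alpha subunit, to 536 CPM per kb for PRE4 in monosome footprints, and from 180 to 391 CPM per kb for the same genes in polysome footprints. The standard deviations of log2 levels were 0.69 in monosomes and 0.29 in polysomes, and in the single libraries 0.68 and 0.69, against 0.29 and 0.30. The regulatory particle gave 0.81 in monosomes and 0.52 in polysomes. Across all tested genes with a length, those above 0 gave 2.51 in monosomes and 2.76 in polysomes. These spreads were not tested.

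Comparing global footprints with mRNA asked how heavily each mRNA was occupied by ribosomes, the usual measure of translational efficiency. Of the 38 genes 26 rose in footprints (68.4%, against 34.8% of all genes tested) and 4 fell (10.5%, against 31.0%). Their median log2 fold change was 0.95 beside 0.15 over all genes. With library totals alone the median of all genes moved to 0.91, and 36 members rose and 1 fell, against 54.5% and 19.3% of all genes. With TMM factors 28 of the 38 lay above the median of all genes. The core's median of 0.69 lay below the 0.91 of the 762 tested genes in its length range, whereas by calls 71.4% of the core rose, against 50.9% of those genes.

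The core had the lower median. Of its 14 genes 10 rose and 4 did not pass, and of the 19 regulatory particle genes 14 rose (median 1.06), 2 fell and 3 did not pass. Tested genes of the regulatory particle's wider length range had a median of 0.24, with 36.5% higher and 29.2% lower. Those of the core's range had the median of 0.91 given above. The difference of medians, core minus regulatory particle, was -0.37 and ran from -0.60 to -0.29 over the 4 pairings of libraries. It was -0.17 without global replicate 2. The lid lay highest, with 8 of 9 genes higher (median 1.5), and the base had 6 higher and 2 lower (median 0.92). In the core, beta genes had a median of 1.11 and alpha genes one of 0.43.

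SEM1 had the highest ratio, at 132 and 153 CPM in global footprints, against 4.66 and 11.6 CPM in mRNA (log2 fold change 4.18 with SE 0.32, edgeR adjusted p = 1.69e-21). Its mRNA value rests on 3 and 6 counts, and the 95% Poisson interval of their sum of 9 runs from 4.12 to 17.1, so its size is known only roughly. RPN5 had 200 and 192 CPM in global footprints, against 29.5 and 48.4 CPM in mRNA (2.37, SE 0.21), and RPN8 had 184 and 189 CPM, against 37.3 and 34.8 CPM (2.36, SE 0.22). RPN13 was highest in the base, at 95.5 and 95.9 CPM in global footprints, against 20.2 and 15.5 CPM in mRNA (2.40, SE 0.28). These 3 genes had 42, 44 and 21 mRNA counts in all for RPN8, RPN5 and RPN13. PRE1 led the core with 143 and 140 CPM in global footprints, against 26.4 and 46.4 CPM in mRNA (2.00, SE 0.23, edgeR adjusted p = 6.10e-13). In each of these genes the groups were far apart, although the mRNA libraries differed in all but RPN8.

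**Figure D4:**
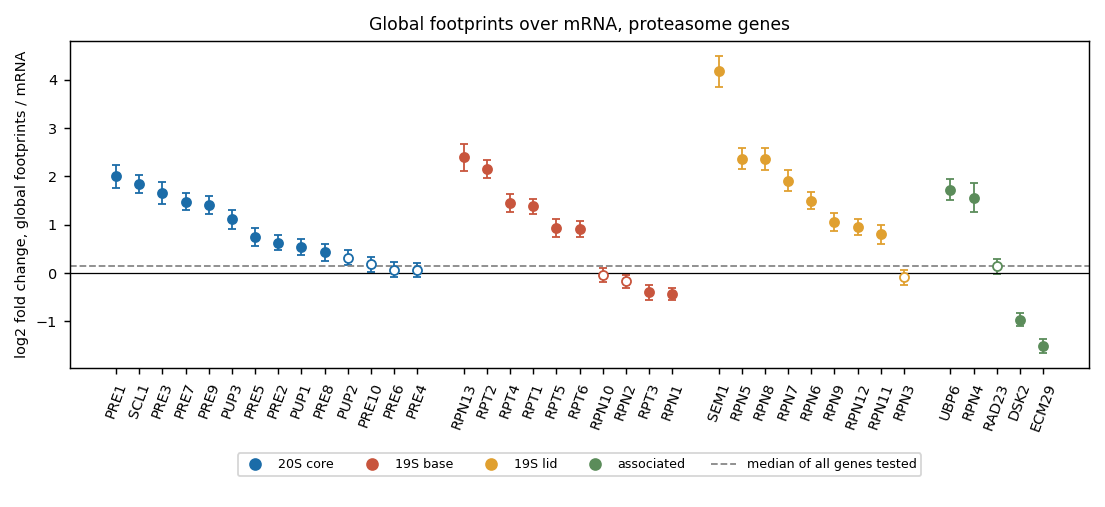
Log2 fold change of global footprints over mRNA for each gene, with bars of 1 SE, sorted within subcomplexes; filled points passed the edgeR threshold and the dashed line is the median of all genes tested, 0.15. SEM1 (270 nt) stands highest at 4.18 and ECM29 (5607 nt) lowest at -1.51. The core runs from 0.06 to 2.00.

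At the other end lay ECM29 and DSK2. ECM29 is the longest member, at 5607 nt, and SEM1 the shortest, at 270 nt. The 762 tested genes of the core's length range had a median of 0.91 in this comparison, beside 0.15 over all genes. A part of gene length in the values of single genes was not tested. ECM29 had 119 and 124 CPM in global footprints, against 379 and 308 CPM in mRNA, a 2.85-fold lower level (-1.51, SE 0.15, edgeR adjusted p = 3.12e-16). DSK2 had 339 and 329 CPM in global footprints, against 658 and 644 CPM in mRNA (-0.96, SE 0.13, edgeR adjusted p = 2.41e-10). Its call was lost with library totals alone (-0.20). The scaffold gene RPN1 had 411 and 429 CPM in global footprints, against 598 and 532 CPM in mRNA (-0.43, SE 0.13, edgeR adjusted p = 0.00169), and the ATPase gene RPT3 had 131 and 132 CPM, against 182 and 164 CPM (-0.40, SE 0.16, edgeR adjusted p = 0.0247). Both calls were lost without mRNA replicate 1, with fold changes of -0.28 and -0.26, and that of RPT3 without each of the other 3 libraries, and both turned positive with library totals. RPN3, the lowest of the lid, had 238 and 206 CPM in global footprints, against 244 and 228 CPM in mRNA (-0.09, SE 0.15).

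PRE4, the lowest of the core, had 230 and 232 CPM in global footprints, against 231 and 209 CPM in mRNA (0.06, SE 0.15). RAD23 had 180 and 155 CPM in global footprints, against 149 and 157 CPM in mRNA (0.14, SE 0.16). Neither passed, and in both the groups overlapped. RPN4 had 61.1 and 67.2 CPM in global footprints, against 15.5 and 29 CPM in mRNA (1.56, SE 0.30, edgeR adjusted p = 3.46e-06). UBP6 rose as well, with 144 and 129 CPM, against 38.8 and 44.5 CPM (1.73, SE 0.22). Of the 5 associated proteins, 2 were higher (40.0%, against 34.8% of all genes tested), 2 lower (40.0%, against 31.0%) and 1 was not called. These shares are near those of all genes.

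Monosome footprints set against global footprints also gave different medians for core and regulatory particle. Of the 38 genes 25 fell in monosomes (65.8%, against 24.3% of all genes tested) and 4 rose (10.5%, against 22.2%), with a median of -0.63 beside 0.00 over all genes. Library totals left that median where it was. In the core 6 of 14 genes fell and 3 rose (median -0.23), and in the regulatory particle 15 of 19 fell and 1 rose (median -0.73). The difference of medians, core minus regulatory particle, was 0.50, from 0.30 to 0.63 over the 4 pairings of libraries and from 0.36 to 0.55 when a library was left out. Tested genes of the core's length range had a median of 0.20 and those of the wider regulatory particle's range 0.02.

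The scaffold RPN1 fell most (148 and 137 CPM in monosomes, against 411 and 429 CPM in global footprints, -1.56, SE 0.12, edgeR adjusted p = 5.13e-21). PUP2 fell most in the core (75.6 and 68.9 CPM, against 158 and 177 CPM, -1.21, SE 0.13), and RPN7 in the lid (105 and 84.5 CPM, against 152 and 209 CPM, -0.92, SE 0.14). PRE4 was highest in monosomes (439 and 419 CPM, against 230 and 232 CPM in global footprints, 0.89, SE 0.12, edgeR adjusted p = 9.85e-10). The other 3 calls on the higher side were less firm. SCL1 (0.40) lost its call without global replicate 2, while PRE5, an alpha subunit gene (0.32), and RPN12 (278 and 298 CPM in monosomes, against 237 and 236 CPM in global footprints, 0.29) lost theirs with DESeq2, with no low-count filter and without monosome replicate 2 or global replicate 2. RPN12 lost it without global replicate 1 too. RPT3 had the highest ratio of the base (112 and 102 CPM, against 131 and 132 CPM, -0.30, SE 0.14) and did not pass. Among associated proteins RAD23 (-1.12), ECM29 (-0.97), DSK2 (-0.63) and UBP6 (-0.53) fell, although UBP6 did not pass once global replicate 1 was left out, and RPN4 had 61.4 and 64.5 CPM, against 61.1 and 67.2 CPM (-0.02, SE 0.17). SEM1 did not pass either (-0.18, SE 0.13).

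Polysome footprints lay nearer to global footprints. Of the 38 genes 13 rose in polysomes (34.2%, against 13.5% of all genes tested) and 3 fell (7.89%, against 10%), with a median of 0.19 beside -0.02 over all genes. With library totals alone the median of all genes moved to -0.46, and 2 members rose and 17 fell, against 3.39% and 37.5% of all genes, so the balance of calls follows the scaling. When genes averaging under 100 counts were dropped, 8 rose and 5 fell, against 15.9% and 15.5% of genes, and the gap from the median of all genes was 0.06 instead of 0.20, so the members then stood little apart. Without polysome replicate 1 the members' median was 0.17 beside -0.01 over all genes, and without global replicate 1 it was 0.16 beside 0.01. Of the 3 that fell, RPN1 and RPN2 lost their calls whichever library was left out, and ECM29 lost its call unless it was polysome replicate 1. The core rose in 7 of 14 genes (median 0.31), led by PUP1 at 297 and 306 CPM in polysomes, against 210 and 157 CPM in global footprints (0.70, SE 0.12, edgeR adjusted p = 4.85e-06). The regulatory particle rose in 4 of 19 and fell in 2 (median 0.10), from RPT3 (190 and 193 CPM, against 131 and 132 CPM, 0.54, SE 0.13) to RPN2 (242 and 245 CPM, against 314 and 313 CPM, -0.37, SE 0.11). Tested genes of the core's length range had a median of 0.18, with 24.3% higher and 5.77% lower. Those of the wider regulatory particle's range had a median of 0.01. A part of gene length in the difference between core and regulatory particle was not tested.

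The shuttles again stood apart on this side. DSK2 had 626 and 618 CPM in polysomes, against 339 and 329 CPM in global footprints (0.90, SE 0.12, edgeR adjusted p = 2.39e-09), and RAD23 had 311 and 307 CPM, against 180 and 155 CPM (0.88, SE 0.12, edgeR adjusted p = 1.31e-08). With library totals these 2 were the members that stayed called as higher. ECM29 was lower (97.6 and 88.9 CPM, against 119 and 124 CPM, -0.38, SE 0.14). UBP6 (0.27, SE 0.13), RPN4 (0.06, SE 0.17) and SEM1 (-0.30, SE 0.13) did not pass. In the lid SEM1 was lowest and RPN7 highest (238 and 220 CPM, against 152 and 209 CPM, 0.36, SE 0.13), a call that leaving out replicate 1 of either group ended. In the core PUP2 was lowest (142 and 140 CPM, against 158 and 177 CPM, -0.24, SE 0.12). The comparisons with global footprints share those 2 libraries, so their values are not independent of each other.

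As a share of library totals, the core took similar parts of every kind of footprint, and the regulatory particle did not. The core held 0.297% and 0.303% of counts in monosome libraries, 0.292% and 0.306% in polysome libraries and 0.321% and 0.322% in global libraries, against 0.109% and 0.118% in mRNA libraries. The regulatory particle held 0.324% and 0.317% in monosome libraries, 0.375% and 0.384% in polysome libraries and 0.465% and 0.528% in global libraries, against 0.177% and 0.188% in mRNA libraries. With TMM factors the even core share was not seen: the core genes summed to 2446 and 2417 CPM in monosome libraries, 3318 and 3319 CPM in polysome libraries and 2671 and 2545 CPM in global libraries, against 1584 and 1542 CPM in mRNA libraries. Core counts per regulatory particle count were 0.916 and 0.955 in monosome libraries, 0.779 and 0.797 in polysome libraries, 0.690 and 0.609 in global libraries and 0.617 and 0.630 in mRNA libraries. That ratio does not move with the scaling of a library, and its monosome values lie above all others. As a ratio of sums, it leans on genes with many counts. Of the core's 14034 and 19511 monosome counts, PRE4 held 2519 and 3382 and SCL1 1785 and 2594. Of its 25371 and 22965 polysome counts, PRE4 held 2302 and 2256 and SCL1 2126 and 1866. The ratio without PRE4 and SCL1 was not calculated, and the difference of medians for monosomes over polysomes was 0.07.

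**Figure D5:**
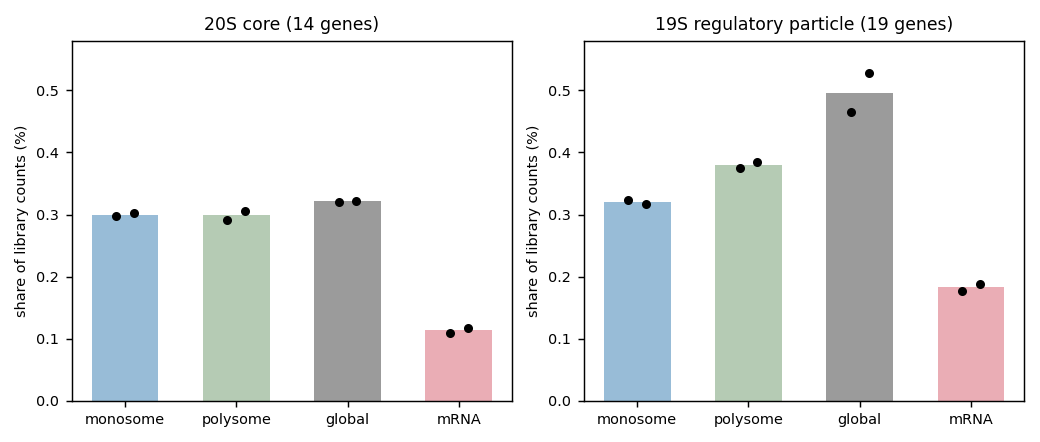
Share of each library's counts, in percent, that fell in the 14 genes of the 20S core (left) and the 19 genes of the 19S regulatory particle (right), with no TMM factor; points are the 2 libraries of a group and bars their mean. Core bars are nearly level at 0.292% to 0.322% in footprints, whereas regulatory particle points lie at 0.317% to 0.324% in monosomes, 0.375% to 0.384% in polysomes and 0.465% to 0.528% in global footprints.

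A further 36 genes of the ubiquitin and proteasome pathway were examined: assembly factors, ubiquitin genes, conjugating enzymes, ligases, the Cdc48 segregase with its partners, and deubiquitinases. Of these, 18 fell in monosomes against polysomes (50%, against 33.5% of all genes tested) and 4 rose (11.1%, against 36.6%), with a median of -0.29. All 5 genes of the Cdc48 and shuttle class fell (median -1.07). CDC48, the ATPase that extracts ubiquitinated proteins, had 397 and 361 CPM in monosomes, against 1101 and 1004 CPM in polysome libraries (-1.47, SE 0.12, edgeR adjusted p = 1.69e-20), and UBA1, the ubiquitin-activating enzyme, had 329 and 300 CPM, against 800 and 691 CPM (-1.25, SE 0.11). The 10 assembly factors and regulators, which help to build or cap the particle, had a median of -0.10, with 1 lower and 2 higher. One of these, UMP1, a chaperone of core assembly that the finished core degrades, rose (293 and 315 CPM in monosomes, against 215 and 220 CPM in polysomes, 0.48, SE 0.10). UBC5, a conjugating enzyme gene, rose as well (0.74, SE 0.12), but it is nearly identical to UBC4 and both may share reads.

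In global footprints against mRNA, 17 of the 36 rose (47.2%, against 34.8% of all genes tested) and 6 fell (16.7%, against 31.0%), with a median of 0.40. BLM10, a gene of 6432 nt for an alternative cap of the core, had 136 and 120 CPM in global footprints, against 477 and 439 CPM in mRNA (-1.84, SE 0.14, edgeR adjusted p = 6.90e-22). The polyubiquitin gene UBI4, whose repeats may split reads, was lower too (-1.55, SE 0.16). UBC4 was highest (2.19, SE 0.17), followed by HSM3, a chaperone of base assembly (1.81, SE 0.42), which had 5 and 7 mRNA counts. In monosomes against global footprints 15 fell (41.7%, against 24.3%) and 6 rose (16.7%, against 22.2%; median -0.26), between CDC48 (-1.51, SE 0.12) and the ligase gene UFD4 (-1.47, SE 0.18) on the lower side and RAD6, a conjugating enzyme gene (0.80, SE 0.15), and UBC5 (1.71, SE 0.27) on the higher. In polysomes against global footprints 9 rose (25%, against 13.5%) and 4 fell (11.1%, against 10%; median 0.11). UBC5 (0.97, lost with library totals or when global replicate 2 was omitted) and UBC4 (0.94) were highest, and HSM3 (-0.82) and UFD4 (-0.69) lowest. HSM3 did not pass without polysome replicate 2 or either global library, nor UFD4 without global replicate 2.

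In the authors' deposited table, whose comparison is not named but whose sign follows monosome over polysome counts, 31 of the 38 genes were lower and 2 higher at an adjusted p under 0.05, against 30.1% and 27% of its 5494 genes with an adjusted p. All 38 calls there matched those of the edgeR fit for monosomes against polysomes. The authors' deposited table gives RAD23 a log2 fold change of -2.04 and PRE4 one of 0.39.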

How the data were processed

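The deposited values are raw gene counts of each library, which the authors made with TopHat, Bowtie and HTSeq on sacCer3, per the submitters' processing notes. Versions, the strand setting and the handling of multiply mapping reads are not given in the sources used here, so reads from overlapping or near-identical genes cannot be told apart. The authors' deposited log2 fold changes and adjusted p-values come from DESeq2, per the file headers, and served only to compare calls. Monosome and polysome fractions passed 2 gradients and global footprints 1, per the labels' protocols.

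Members and lists were chosen with earlier results of these data known. Counts were fitted with edgeR 4.0.16 (R 4.3.3) on all 8 libraries in 4 groups, with TMM factors, filterByExpr (minimum count 10, minimum total 15; 5336 genes kept), quasi-likelihood F tests and Benjamini-Hochberg adjustment at 0.05. SE is the absolute log2 fold change divided by the square root of F. Alternatives used DESeq2 1.42.0, other scalings and filters, smaller fits, a replicate block and libraries left out. The scripts were tested on simulated counts. Names, positions and gene lengths (start to end, introns included) come from the RefSeq R64 table, which holds all 38 members; none overlaps another gene there. Replicates of a group varied beyond counting error (chi-square divided by degrees of freedom 5.42 for monosome, 4.39 for polysome, 1.49 for global and 4.64 for mRNA). Named in full are RPN4, RAD23, DSK2, UBP6, ECM29, SEM1 and the extremes of core, base and lid in each comparison; other genes named in passing were chosen after their values were seen. Promoter and protein sequences were not used here, so the planned motif search and coding lengths were left out. Intervals cover counting error only. Python 3.11.15, numpy 2.4.6, pandas 2.3.3, scipy 1.17.1 and matplotlib 3.10.9 made summaries and figures.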

Additional observations from a re-analysis of the deposited data

How the results depend on the processing

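Each member was refitted under 11 alternatives per comparison, 1672 values in all, of which 1527 kept their side of the threshold, 87 lost a call, 35 gained one and 23 turned sign with a call on at least 1 side. A further 56 turned sign without passing in either fit and are counted as kept. Of the 418 values in each comparison, 395 kept their side for monosomes over polysomes, 387 for global footprints over mRNA, 397 for monosomes over global footprints and 348 for polysomes over global footprints. The cause of the changes below was not tested. With library totals alone, 7 members were higher in monosomes than in polysomes, 1 was lower in global footprints than in mRNA, and 2 were higher and 17 lower in polysomes than in global footprints. The 23 turned values all arose there. For monosomes over polysomes they were 0.36 (PRE5), 0.15 (PRE7) and 0.38 (RPN4). For global footprints over mRNA they were 0.36 (RPT3), 0.33 (RPN1), 0.59 (RPN2), 0.73 (RPN10) and 0.68 (RPN3). For polysomes over global footprints they were -0.03 (PRE5), -0.12 (PRE10), -0.34 (PRE1), -0.32 (PRE2), -0.01 (PRE4), -0.31 (RPT1), -0.43 (RPT4), -0.35 (RPT5), -0.09 (RPT6), -0.32 (RPN10), -0.33 (RPN5), -0.15 (RPN6), -0.09 (RPN7), -0.39 (RPN8) and -0.43 (RPN11). When genes averaging under 100 counts were dropped, 5 members were higher in monosomes than in polysomes, and 8 were higher and 5 lower in polysomes than in global footprints. With DESeq2, and with no low-count filter, 2 members rose in monosomes over global footprints, against 18.5% and 18.4% of all genes.

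With a library left out, the gap between the members' median and that of all genes ran from -0.79 to -0.66 for monosomes over polysomes. It ran from 0.72 to 0.97 for global footprints over mRNA and from -0.64 to -0.51 for monosomes over global footprints. For polysomes over global footprints it ran from 0.14 to 0.22. The difference of medians, core minus regulatory particle, then ran from 0.00 to 0.16 for monosomes over polysomes, from -0.53 to -0.17 for global footprints over mRNA, from 0.36 to 0.55 for monosomes over global footprints and from 0.19 to 0.35 for polysomes over global footprints. Same-numbered libraries did not deviate together (r from -0.008 to 0.058), so the numbers were not taken as pairs. With a replicate block 3 members rose and 31 fell for monosomes over polysomes, against 36.8% and 34.2% of all genes. For global footprints over mRNA 26 rose and 4 fell, against 34.7% and 31.0%. For monosomes over global footprints 4 rose and 25 fell, against 22.5% and 24.6%. For polysomes over global footprints 14 rose and 3 fell, against 14.7% and 10.4%. SCL1 gained its call in the first of these comparisons and RPN3 in the last. The levels per kb with coding lengths were not run.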
